A study of Homo sapiens with 10 samples.

Results

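The stress genes described here were 10 genes of the unfolded protein response and of its ATF4 branch, namely ATF4, DDIT3, TRIB3, ASNS, CHAC1, SESN2, HSPA5, DNAJB9, HERPUD1 and PPP1R15A. They were taken by gene symbol, and all 10 were present among the 23426 genes of every expression file and among the 16071 genes tested. RNA was sequenced from MDA-MB-468, a basal cell line from a triple-negative breast cancer, and from ZR75-1, a luminal breast cancer line. Each line was harvested 6 h after DMSO, the solvent (n = 2 samples a line), or PKC412 at 1 µM (n = 3 samples a line), which gives 10 samples. The dose is that of the labels and methods, while some legends of the study give a lower one. PKC412 is midostaurin, a derivative of staurosporine that inhibits many kinases. Each subtype stands as 1 cell line, so a difference between the lines is a difference between these lines and not between basal and luminal cells in general. The labels do not say whether the samples of a group were separate cultures, so the p-values measure the spread between these samples, which may be technical.

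Secretory and membrane proteins fold in the endoplasmic reticulum (ER), and when unfolded proteins collect there, a set of membrane sensors sets off the unfolded protein response. IRE1 splices the XBP1 mRNA, ATF6 is cut to release a transcription factor, and PERK phosphorylates the initiation factor eIF2. Phosphorylated eIF2 lowers general translation while the ATF4 mRNA is translated more, and ATF4 then turns on genes of amino acid supply, redox control and feedback. Kinases other than PERK that sense amino acid shortage, heme or double-stranded RNA also phosphorylate eIF2, so the ATF4 branch can be active with no stress in the ER. ATF4 is controlled mainly through translation, so its mRNA level is not a measure of its protein.

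Values are FPKM, in which the fragments of a transcript are set against its length and against all fragments mapped, as the authors gave them per gene symbol. The FPKM of a sample summed to between 599228 and 835069 over all genes, and read numbers could not be recovered from them, so depth is unknown. In both lines every PKC412 sample had a lower sum than every DMSO sample. The sums were 765859 and 722642 with DMSO and 599228, 700688 and 646380 with PKC412 in MDA-MB-468. In ZR75-1 they were 835069 and 752338 with DMSO and 710360, 746154 and 610275 with PKC412. Of 9 basal marker genes, 8 had a higher mean FPKM in both MDA-MB-468 groups than in either ZR75-1 group. For 9 of 9 luminal marker genes the means of both ZR75-1 groups were the higher, so the labelled lines matched their markers. Samples differed in how their values ran along the GC content of the transcripts. The slope of the log2 deviation from the line mean, per 10 percentage points of GC, was 0.373 and 0.0573 for DMSO and -0.287, -0.0240 and -0.119 for PKC412 in MDA-MB-468. For ZR75-1 the slopes were 0.314 and -0.192 with DMSO and -0.107, 0.342 and -0.356 with PKC412. In MDA-MB-468 the slopes of the treatments did not overlap, so values after adjustment for GC content are also given for the stress genes whose call or size it changed.

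The promoters of the stress genes were read for elements that are known to take part in these pathways. The windows are RefSeq sequences on GRCh38.p14 that run from 250 bases before to 50 bases after an annotated start, and all 10 genes had a window, 15 windows in all. The composite element of ATF4 and C/EBP factors was searched as TGATGNAAN on both strands and was present in windows of ASNS, CHAC1 and HERPUD1, against 3.61% of all 35116 windows. The ER stress element, searched on both strands as CCAAT and CCACG with 9 bases of any kind between them, was present in a window of HSPA5, against 0.0769% of all windows. The unfolded protein response element TGACGTGG was in no window of the 10 genes, against 0.729% of all windows. The lines below show the matches in capitals with 36 bases on each side, each 5′ to 3′ on the strand of its gene. They are shown because ASNS, CHAC1 and HERPUD1 hold the element of the factor that gives the set its name, and because HSPA5 holds the ER stress element. Of the genes that passed the test in MDA-MB-468, CHAC1 had a match and TRIB3 had none, while ASNS, HERPUD1 and HSPA5 did not pass. The ASNS stretch is chr7:97872432-97872512 on the minus strand, with the match starting 68 bases before the annotated start. The CHAC1 stretch is chr15:40953225-40953305 on the plus strand (210 bases before), the HERPUD1 stretch chr16:56931929-56932009 on the plus strand (177 bases before), and the HSPA5 stretch chr9:125241355-125241445 on the minus strand (66 bases before). In CHAC1 and HERPUD1 the element was read from the other strand, so its letters appear as the reverse complement. The starts are those of RefSeq, and in GENCODE the ASNS and CHAC1 genes begin further upstream, so that these stretches lie inside the gene there. A match is a run of letters and not a measured binding site.
ASNS: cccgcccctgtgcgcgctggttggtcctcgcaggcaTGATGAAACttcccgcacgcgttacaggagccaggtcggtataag
CHAC1: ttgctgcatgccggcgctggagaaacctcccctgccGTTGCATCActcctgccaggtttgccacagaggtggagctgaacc
HERPUD1: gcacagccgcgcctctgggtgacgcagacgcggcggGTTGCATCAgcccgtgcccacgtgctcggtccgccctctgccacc
HSPA5: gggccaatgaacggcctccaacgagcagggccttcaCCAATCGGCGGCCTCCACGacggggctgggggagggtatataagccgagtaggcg

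Without the drug the 10 genes ran from among the highest of all genes to the middle of the ranking. In MDA-MB-468 the highest mean FPKM was that of ATF4 (951 ± 9.92, SD, n = 2, rank 150 of all genes), followed by HSPA5 (427 ± 19.1, rank 296), TRIB3 (155 ± 9.37) and DDIT3 (81.5 ± 0.204). HERPUD1 (56.8 ± 14.3) and ASNS (56.8 ± 2.94) came next and overlapped in their samples, as did CHAC1 (13.0 ± 0.751) and PPP1R15A (12.8 ± 0.470). SESN2 (8.22 ± 0.317) and DNAJB9 (0.977 ± 0.634, rank 10399) were the lowest. The order at the upper end was the same in ZR75-1, at lower levels: ATF4 222 ± 12.9 (rank 528), HSPA5 101 ± 20.0, TRIB3 49.2 ± 3.11 and DDIT3 30.2 ± 0.0894 FPKM. Below these, the samples of ASNS (15.1 ± 0.998), HERPUD1 (11.7 ± 6.19) and SESN2 (11.5 ± 0.712) were neighbours, HERPUD1 overlapping both, and PPP1R15A (6.46 ± 1.00), CHAC1 (3.63 ± 0.284) and DNAJB9 (0.603 ± 0.624) followed. After PKC412 the order in MDA-MB-468 changed at HERPUD1 (139 ± 19.6, n = 3), which stood beside DDIT3 (121 ± 22.3) with overlapping samples, and at SESN2 (12.7 ± 0.627), which overlapped PPP1R15A (12.5 ± 0.608). In ZR75-1 after PKC412, HERPUD1 (20.3 ± 2.62) overlapped DDIT3 (24.1 ± 2.59) above it and ASNS (15.1 ± 3.21) below it.

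**Figure D1:**
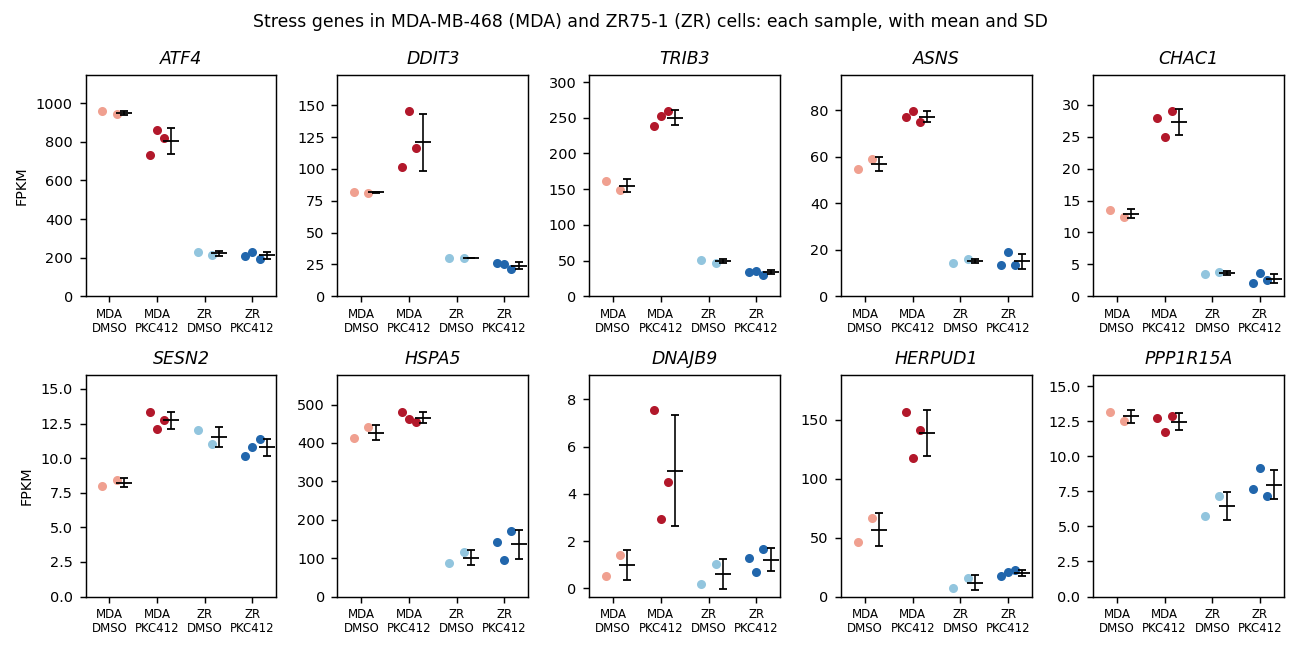
FPKM of the 10 stress genes (vertical axes, 1 scale a gene) in each sample, grouped by line and treatment (MDA, MDA-MB-468; ZR, ZR75-1). Points are samples, and the bar beside each group is the mean with its SD (n = 2 for DMSO and n = 3 for PKC412); for 8 genes every MDA-MB-468 point lies above every ZR75-1 point, and SESN2 and DNAJB9 overlap between the lines.

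PKC412 was compared with DMSO within MDA-MB-468, the line in which the study followed the response to the drug. TRIB3 and CHAC1 rose, by 1.61-fold and 2.02-fold in FPKM + 1, and the other 8 genes did not pass the test. With limma on log2(FPKM + 1) and an adjusted p under 0.05, 2 of 10 stress genes were called higher, against 0.691% of all genes tested, and 0 were called lower, against 0.566%. At an unadjusted p under 0.05 there were 7, all higher, against 11.1% of all genes tested, which were DDIT3, TRIB3, ASNS, CHAC1, SESN2, DNAJB9 and HERPUD1. Every PKC412 sample was above every DMSO sample for 8 of 10 genes, against 39.6% of all genes tested, and below for 1 (ATF4), against 16.3%. The median log2 fold change was 0.56 over the 10 genes and 0.11 over all genes tested. In a bulk sample, a change in every cell and a change in the share of cells that express a gene cannot be told apart.

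TRIB3 is a pseudokinase that binds AKT and ATF4 and damps the signalling of both. MDA-MB-468 cells had 162 and 148 FPKM of TRIB3 in DMSO and 238, 253 and 259 FPKM in PKC412. All 3 treated samples lay above both controls, and the gap between the treatments was wider than the spread within either. The log2 fold change was 0.69 (SE 0.104, 95% interval 0.45 to 0.93), with an adjusted p of 0.0241 in limma. The TRIB3 gene lies at chr20:362835-397559 on the plus strand (GENCODE on GRCh38) and has no overlapping gene there.

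CHAC1, which degrades glutathione, had 13.5 and 12.4 FPKM in DMSO and 27.9, 25.0 and 28.96 FPKM in PKC412. Again no treated sample overlapped a control, and its log2 fold change of 1.02 (SE 0.175, 95% interval 0.62 to 1.42, adjusted p of 0.0397 in limma) exceeded that of TRIB3. The gene lies at chr15:40952962-40956519 on the plus strand. Both calls were lost when the samples were rescaled by median ratios, which left TRIB3 at 0.54 (adjusted p 0.204 in limma) and CHAC1 at 0.87 (adjusted p 0.0752 in limma). The call of CHAC1 was also lost without any 1 of the 5 MDA-MB-468 samples (0.96 to 1.08) and without ZR75-1 DMSO replicate 1 or 2 or PKC412 replicate 3, and that of TRIB3 without any MDA-MB-468 sample but PKC412 replicate 2 (0.63 to 0.75) and without ZR75-1 PKC412 replicate 1, where the ZR75-1 samples bear only on the shared estimate of the spread.

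SESN2, a leucine-binding protein that restrains mTORC1, was 7.99 and 8.44 FPKM in DMSO and 13.3, 12.1 and 12.8 in PKC412. The treatments did not overlap, with a log2 fold change of 0.58 (SE 0.109), but the adjusted p of 0.0541 in limma missed the threshold, which it met without the filter on low FPKM (0.0311) or without the trend (0.0213). DDIT3, the transcription factor CHOP that is tied to cell death under lasting ER stress, was 81.6 and 81.3 FPKM in DMSO and 101, 145 and 117 in PKC412. Its controls were nearly equal while its treated samples spread widely, and the log2 fold change of 0.55 (SE 0.157) had an adjusted p of 0.180 in limma. ASNS, which makes asparagine, was 54.7 and 58.8 FPKM in DMSO and 77.3, 79.5 and 75.0 in PKC412. These also did not overlap (log2 fold change 0.44, SE 0.153, adjusted p 0.249 in limma), but after adjustment for GC content and transcript length the value for ASNS was 0.12. The DDIT3 gene overlaps MARS (a tRNA synthetase) and MBD6, which also have rows in the files, and ATF4 and ASNS have 4 named pseudogenes each with no row there, so reads of these genes could have been shared.

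ATF4 itself was lower in all PKC412 samples of MDA-MB-468, at 729.9, 861 and 821 FPKM against 958 and 944 in DMSO. The log2 fold change was -0.24 (SE 0.122, 95% interval -0.53 to 0.04) and the adjusted p 0.325 in limma, so the level of ATF4 mRNA did not pass the test. PPP1R15A, known as GADD34, brings a phosphatase to eIF2 and so ends the block of translation. Its FPKM was 13.2 and 12.5 in DMSO and 12.7, 11.8 and 12.9 in PKC412, so that the treatments overlapped, and the 95% interval of the log2 fold change ran from -0.37 to 0.29 around -0.04.

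None of the 3 ER genes of the set passed the test in MDA-MB-468. HSPA5, or BiP, is the main Hsp70 chaperone of the ER and holds the sensors inactive. It was 413 and 440.4 FPKM in DMSO and 481, 463 and 455 in PKC412 in MDA-MB-468. The treatments did not overlap, but the log2 fold change was only 0.13 (95% interval -0.40 to 0.66, adjusted p 0.762 in limma), and it turned to -0.03 under the median-ratio rescaling and to -0.36 under the adjustment for GC content and length, so no direction is given for HSPA5.

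HERPUD1, an ER membrane protein that takes part in the degradation of misfolded proteins, was 46.7 and 66.9 FPKM in DMSO and 157, 118 and 141 in PKC412. Every treated sample was well above both controls, which were themselves far apart. The log2 fold change was 1.29 (SE 0.301, 95% interval 0.59 to 1.98), larger in size than that of CHAC1, and the adjusted p was 0.109 in limma, or 0.0412 and 0.0408 with ZR75-1 DMSO replicate 1 or 2 left out of the shared spread. DNAJB9, the BiP co-chaperone ERdj4, was the lowest gene of the set and had 0.529 and 1.43 FPKM in DMSO and 7.53, 2.92 and 4.50 in PKC412. Its mean was 5.10 times as high after PKC412, and no other of the 10 genes reached a ratio of mean FPKM of 3 in MDA-MB-468, against 7.21% of the genes with a mean above 0.1 in either treatment. HERPUD1 came next, with a ratio of 2.44. The ratio of DNAJB9 was 3.49 without DMSO replicate 1 and 9.42 without DMSO replicate 2. On the log2(FPKM + 1) scale, which understates low genes, the change of DNAJB9 was 1.56 (SE 0.397, adjusted p 0.137 in limma). DNAJB9 overlaps PNPLA8 and THAP5, which lie on the other strand and also have rows in the files, and use of strand in the counting was not given in the sources used here, so its values are uncertain.

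Transcripts of HERPUD1, DNAJB9, HSPA5 and ASNS are poor in GC (47.9%, 40.4%, 46.0% and 47.0%), and those of CHAC1 and TRIB3 are rich in it (62.6% and 60.9%). With FPKM adjusted per sample for GC content and length, 6 of 10 stress genes were called higher in MDA-MB-468, against 1.97% of all genes tested in that setting. The log2 fold changes were then 1.25 for CHAC1, 1.21 for DNAJB9, 0.94 for HERPUD1, 0.80 for TRIB3, 0.60 for DDIT3 and 0.57 for SESN2, and the highest of their adjusted p-values in limma was 0.0473. Under the adjustment the values of CHAC1 and TRIB3 were thus higher, and those of the 4 GC-poor genes lower, than without it. Not all genes followed their GC content. SESN2 (59.5%) was nearly unchanged, and DDIT3 (49.7%) was higher than its 0.55 without the adjustment. In MDA-MB-468 the samples of HERPUD1 and DNAJB9 rose in FPKM in the order in which the GC slopes fell. Because the slopes of the treatments were apart, GC content and PKC412 cannot be told apart in this line. The adjustment takes out whatever follows GC content or transcript length.

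**Figure D2:**
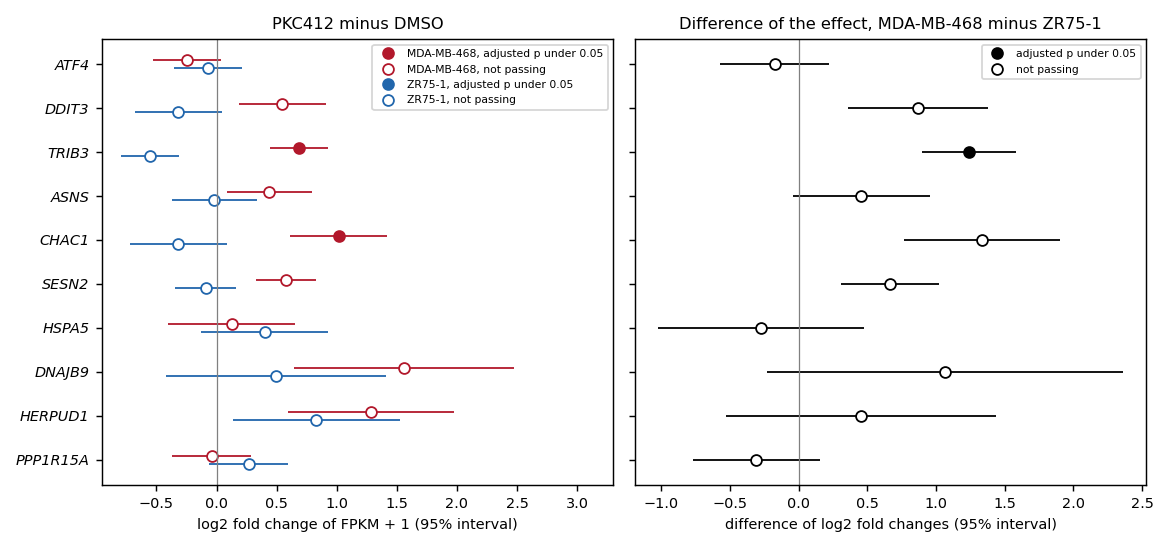
Left, log2 fold change of FPKM + 1, PKC412 minus DMSO, for the 10 stress genes in MDA-MB-468 (red) and ZR75-1 (blue), with 95% intervals from limma. Right, the difference of these effects, MDA-MB-468 minus ZR75-1; filled points have an adjusted p under 0.05 (TRIB3 and CHAC1 in MDA-MB-468, TRIB3 in the difference), and TRIB3 lies above 0 in MDA-MB-468 and below 0 in ZR75-1.

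In ZR75-1, a luminal line that the study set beside MDA-MB-468, none of the 10 genes passed the limma test. The count was 0 higher, against 0.747% of all genes tested, and 0 lower, against 0.199%, and at an unadjusted p under 0.05 there were 2, HERPUD1 (higher) and TRIB3 (lower), against 11.2% of all genes in either direction. Every PKC412 sample was above every DMSO sample for 1 gene (HERPUD1), against 14.8% of all genes tested, and below for 2 (DDIT3 and TRIB3), against 6.98%. The median log2 fold change was -0.05 over the 10 genes and 0.07 over all genes tested. With 2 control samples, an exact permutation test of a single gene could not have reached p under 0.05 in either line, since the smallest p it allows is 0.1.

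TRIB3 in ZR75-1 was 51.4 and 47.0 FPKM in DMSO and 34.0, 35.6 and 30.3 in PKC412, the reverse order of that in MDA-MB-468. The groups did not overlap, and the log2 fold change was -0.55 (SE 0.104, 95% interval -0.79 to -0.31) with an adjusted p of 0.0633 in limma. After the adjustment for GC content and length it was -0.61, and the adjusted p was 0.00320 in limma. DDIT3 was 30.3 and 30.1 FPKM in DMSO and 25.7, 25.5 and 21.1 in PKC412, again lower in every treated sample (log2 fold change -0.32, adjusted p 0.499 in limma). CHAC1 was 3.43 and 3.83 FPKM in DMSO and 2.12, 3.60 and 2.56 in PKC412, where replicate 2 lay between the controls. Its log2 fold change of -0.32 had a 95% interval of -0.72 to 0.09.

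ATF4 was 231 and 213 FPKM in DMSO and 211, 232 and 194 in PKC412 in ZR75-1, and the treatments overlapped. ASNS was 14.4 and 15.9 FPKM in DMSO and 13.3, 18.8 and 13.2 in PKC412, and SESN2 was 12.0 and 11.0 in DMSO and 10.1, 10.8 and 11.4 in PKC412. PPP1R15A was 5.76 and 7.17 FPKM in DMSO and 7.64, 9.17 and 7.13 in PKC412. All 4 of these genes overlapped between the treatments, and their 95% intervals of the log2 fold change all included 0 (-0.35 to 0.21 for ATF4, -0.37 to 0.33 for ASNS, -0.34 to 0.16 for SESN2 and -0.06 to 0.59 for PPP1R15A).

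HERPUD1 in ZR75-1 was 7.30 and 16.1 FPKM in DMSO and 17.4, 20.8 and 22.5 in PKC412. Here the controls lay further apart than the treated samples, and the lowest treated sample was only just above the higher control. The log2 fold change was 0.83 (SE 0.301, 95% interval 0.14 to 1.52) and the adjusted p 0.378 in limma, and it was 0.31 without DMSO replicate 1 and 1.35 without DMSO replicate 2. HSPA5 was 87.0 and 115 FPKM in DMSO and 142, 95.6 and 170.6 in PKC412 (log2 fold change 0.40, 95% interval -0.13 to 0.93), and DNAJB9 was 0.162 and 1.04 in DMSO and 1.29, 0.683 and 1.67 in PKC412 (0.50, 95% interval -0.42 to 1.41). Both overlapped. DMSO replicate 1 was the lowest ZR75-1 sample for all 3 of these genes and PKC412 replicate 2 the next lowest for HSPA5 and DNAJB9, and these are the samples with the high GC slopes of 0.314 and 0.342. The part of GC content in these levels was not tested apart from the adjustment, under which the log2 fold changes became 0.61 for HERPUD1, 0.11 for HSPA5 and 0.47 for DNAJB9. No stress gene reached a ratio of mean FPKM of 3 in ZR75-1, against 4.09% of the genes with a mean above 0.1, and the highest ratio was 2.01, for DNAJB9, which was 1.16 without DMSO replicate 1 and 7.50 without DMSO replicate 2.

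Whether the effect of PKC412 differed between the lines was tested with the difference of the log2 fold changes, MDA-MB-468 minus ZR75-1. It passed for 1 of 10 stress genes, TRIB3, against 0.268% of all genes tested in either direction. For TRIB3 the difference was 1.24 (SE 0.148, 95% interval 0.90 to 1.58, adjusted p of 0.0181 in limma), with the fold change above 0 in MDA-MB-468 and below 0 in ZR75-1. The call was lost under the median-ratio rescaling (1.21, adjusted p 0.121 in limma) and without MDA-MB-468 DMSO replicate 1, DMSO replicate 2, PKC412 replicate 1 or PKC412 replicate 3, or without ZR75-1 DMSO replicate 1 or PKC412 replicate 1, where the difference stayed between 1.18 and 1.30. At an unadjusted p under 0.05 there were 4 genes, against 7.05% of all genes in either direction, and the other 3 were CHAC1 (1.33, 95% interval 0.76 to 1.90, adjusted p 0.103 in limma, or 0.0259 without ZR75-1 PKC412 replicate 2), DDIT3 (0.87, 0.36 to 1.38, adjusted p 0.286) and SESN2 (0.67, 0.31 to 1.02, adjusted p 0.220). Under the adjustment for GC content and length, TRIB3, CHAC1 and SESN2 were called for the difference. For the ER genes the intervals of the difference included 0, at -0.53 to 1.44 for HERPUD1, -1.02 to 0.48 for HSPA5 and -0.23 to 2.36 for DNAJB9. The difference for ATF4 was -0.17 (-0.57 to 0.22).

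The levels of most of these genes differed between the lines before any treatment. In DMSO, 8 of 10 stress genes were lower in ZR75-1 than in MDA-MB-468, against 26.5% of all genes tested, and 1, SESN2, was higher, against 15.9%. The mean FPKM in DMSO was 4.86 times as high in MDA-MB-468 for HERPUD1, 4.28 times for ATF4, 4.22 times for HSPA5, 3.75 times for ASNS, 3.57 times for CHAC1, 3.15 times for TRIB3, 2.70 times for DDIT3 and 1.99 times for PPP1R15A. For these 8 genes all 5 MDA-MB-468 samples, treated or not, were above all 5 ZR75-1 samples. Their log2 differences, ZR75-1 minus MDA-MB-468, ran from -2.26 (HERPUD1, SE 0.330) to -0.90 (PPP1R15A, SE 0.155), and the highest adjusted p among them was 0.00198 in limma.

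SESN2 went the other way, with 0.712 times the ZR75-1 level in MDA-MB-468. Its log2 difference was 0.44 (SE 0.119, adjusted p 0.0172 in limma), and the call was lost without MDA-MB-468 DMSO replicate 1 (0.41) or replicate 2 (0.48) or ZR75-1 DMSO replicate 1 (0.39). After PKC412 its samples in MDA-MB-468, 12.1 to 13.3 FPKM, all lay above the untreated ZR75-1 samples, 11.0 to 12.0 FPKM. DNAJB9 did not pass (-0.32, 95% interval -1.32 to 0.68).

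The other genes of the pathways were taken from lists by role, and their counts are descriptions. Unless stated, their values are not adjusted for GC content, which cannot be told apart from PKC412 in MDA-MB-468. None of the 14 genes of the sensors and of eIF2 control was called in either line. In MDA-MB-468 all 14 had a log2 fold change above 0, against 10446 of 16071 genes tested, with a median of 0.55. In ZR75-1 12 of 14 did, against 10474 of 16071, with a median of 0.50. The highest in MDA-MB-468 were NCK1 (1.66, adjusted p 0.246 in limma), an adaptor that binds eIF2, and EIF2AK3 (1.18, adjusted p 0.284 in limma), which is PERK. In ZR75-1 they were XBP1 (0.95, adjusted p 0.332 in limma) and ATF6 (0.90, adjusted p 0.362 in limma), and the lowest were DNAJC3 (-0.33) and EIF2AK2 (-0.23).

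XBP1 encodes the transcription factor that IRE1 splicing activates, and it is also a luminal marker. It was 58.5 and 86.2 FPKM in DMSO and 162, 129 and 142 in PKC412 in MDA-MB-468, and 327 and 718 in DMSO and 813, 969.9 and 1047 in PKC412 in ZR75-1. In both lines every treated sample was above both controls, the controls of ZR75-1 lay far apart, and neither log2 fold change (1.01, adjusted p 0.216 in limma, and 0.95) passed. That in ZR75-1 was 0.39 without DMSO replicate 1 and 1.52 without DMSO replicate 2. XBP1 was thus higher in ZR75-1 without the drug (log2 difference 2.75, adjusted p 0.000355 in limma), unlike 8 of the 10 stress genes. FPKM per symbol do not separate spliced from unspliced XBP1.

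Of 28 genes of the ATF4 and amino acid response, 2 were called higher in MDA-MB-468, DDIT4 and STC2, against the 0.691% of all genes given above. A log2 fold change above 0 was seen for 25 of 28, against 10446 of 16071 genes tested, with a median of 0.65. DDIT4, or REDD1, an inhibitor of mTORC1, was 102 and 93.5 FPKM in DMSO and 225, 211 and 232 in PKC412. Its log2 fold change was 1.18 (SE 0.104, adjusted p 0.00275 in limma), and the call held with any 1 sample left out. The replicate block, under which no gene was called in this line, lost the call of DDIT4. STC2, a secreted glycoprotein, was 6.56 and 6.89 FPKM in DMSO and 20.6, 14.8 and 18.4 in PKC412 (log2 fold change 1.28, SE 0.180, adjusted p 0.0162 in limma). After the adjustment for GC content and length the values were 1.34 for DDIT4 and 0.99 for STC2, both still called. Neither gene overlapped between the treatments, and the call of STC2 was lost without MDA-MB-468 DMSO replicate 1 or 2 or PKC412 replicate 1 or 3 (1.18 to 1.32).

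In ZR75-1 1 of the 28 genes was called, SLC7A5, the light chain of the LAT1 transporter of large neutral amino acids, against 0.747% of all genes, and the median log2 fold change of the list was 0.17. SLC7A5 was 151 and 200.3 FPKM in DMSO and 411, 529 and 599 in PKC412 in ZR75-1 (log2 fold change 1.54, SE 0.215, adjusted p 0.0199 in limma). In MDA-MB-468 it was 43.0 and 42.5 FPKM in DMSO and 110.1, 75.4 and 100.1 in PKC412 (1.12, adjusted p 0.0559 in limma), and it was called there under the median-ratio rescaling (0.97, adjusted p 0.0448 in limma), under the adjustment for GC content and length (1.11, adjusted p 0.0133) and without MDA-MB-468 PKC412 replicate 2 (1.28, adjusted p 0.0353). The treatments were apart in both lines, and the difference of the effects was -0.42 (95% interval -1.12 to 0.28). The call in ZR75-1 was lost without ZR75-1 DMSO replicate 1 (1.34) or PKC412 replicate 3 (1.42), and without MDA-MB-468 DMSO replicate 1 or 2 or PKC412 replicate 3, which change the shared estimate of the spread. DDIT4 differed in effect between the lines (1.52, 95% interval 1.18 to 1.85, adjusted p 0.00791 in limma), since it was 18.3 and 21.5 FPKM in DMSO and 15.5, 16.2 and 14.8 in PKC412 in ZR75-1, lower in every treated sample, with a log2 fold change of -0.34 that did not pass (adjusted p 0.276 in limma).

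The highest other genes of this list in MDA-MB-468 were PSAT1 (1.44, adjusted p 0.0983 in limma), of serine synthesis, and MTHFD2 (1.34, adjusted p 0.290 in limma), of mitochondrial folate metabolism. The lowest were ATF5 (-0.42, adjusted p 0.154 in limma), a bZIP factor, and NUPR1 (-0.28, adjusted p 0.692 in limma). In ZR75-1 CTH, which makes cysteine, was the next highest (0.72), and NUPR1 (-0.95) and GDF15 (-0.39) were the lowest, none of which passed.

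No tRNA synthetase of 12 was called in either line. In MDA-MB-468 all 12 were higher in every PKC412 sample than in every DMSO sample, against the 39.6% of all genes given above, with a median log2 fold change of 0.48. IARS (1.76) and NARS (1.39) were the highest and had adjusted p-values of 0.269 and 0.327 in limma. For both genes the FPKM of the MDA-MB-468 samples rose as their GC slope fell. The same order of samples was seen for HERPUD1, DNAJB9, XBP1 and STC2, among others. IARS ran from 0.452 in DMSO replicate 1 to 10.5 in PKC412 replicate 1, and the part of GC content in this was not tested. In ZR75-1 2 of 12 were higher in every treated sample, against 14.8% of all genes tested, and 1 lower, against 6.98%. These counts are near the shares of all genes, and the median was 0.17. IARS (1.02) and NARS (0.86) were again the highest there, and EPRS (-0.25) and CARS (-0.25) the lowest.

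The chaperones and the degradation machinery showed no call either. Of 16 ER chaperones and folding enzymes 10 were above 0 in MDA-MB-468 (median 0.24), against 10446 of 16071 genes tested. In ZR75-1 10 were above 0 (median 0.10), against 10474 of 16071. DNAJC10 (2.49, adjusted p 0.256 in limma) and CANX (1.61) were the highest in MDA-MB-468 and SDF2L1 (-0.53) and MANF (-0.40) the lowest, both of them known targets of the ER stress response. In ZR75-1 CANX (0.94) and HYOU1 (0.61) were the highest and HSP90B1 (-0.55) and SDF2L1 (-0.43) the lowest. The list of ER-associated degradation and the translocon had 16 genes, some of them of other roles. Of these, 11 were above 0 in MDA-MB-468 (median 0.19) and 13 in ZR75-1 (median 0.28), against the same shares of all genes. SEC24D had 1.18 in both lines, and UFM1 had 0.75 in MDA-MB-468. The lowest in both lines were SEC61G (-0.23 in MDA-MB-468, -0.43 in ZR75-1) and SEC61B (-0.19 and -0.13), subunits of the translocon.

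**Figure D3:**
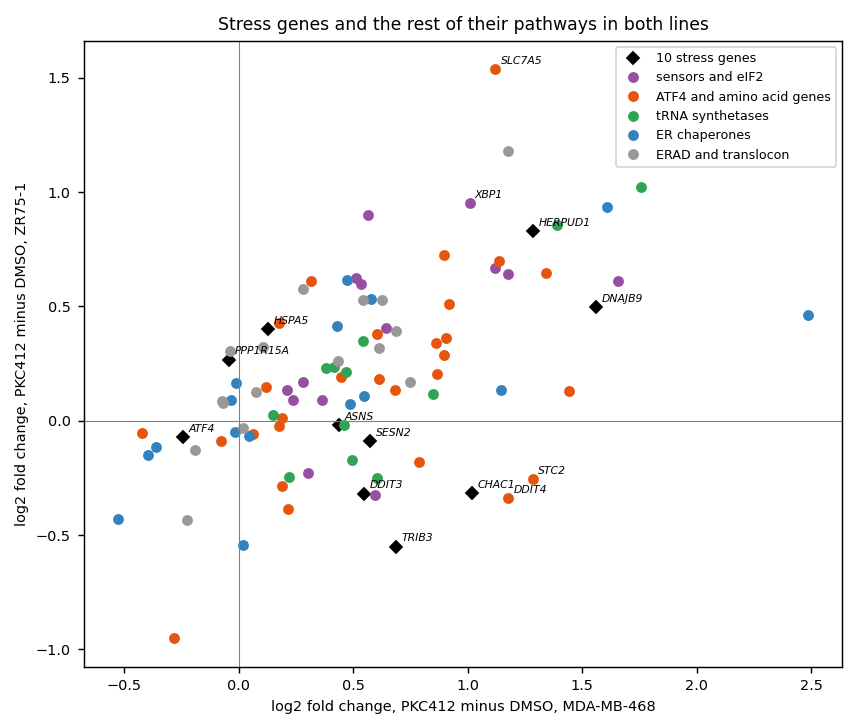
Log2 fold change of FPKM + 1, PKC412 minus DMSO, in MDA-MB-468 (horizontal) and ZR75-1 (vertical) for the 10 stress genes (black diamonds) and the listed genes of their pathways (circles, 1 colour a list). TRIB3, CHAC1, DDIT3, DDIT4 and STC2 lie to the right of and below the zero lines, and HERPUD1, DNAJB9, XBP1 and SLC7A5 lie above 0 in both lines.

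The genes whose samples ran most like those of DDIT3 and of HSPA5 were found from log2(FPKM + 1) centred on the mean of each line, by the root mean square difference over the 10 samples among 8733 genes with a mean above 1 FPKM in every group. This is a description, and all points share their libraries. For DDIT3 the nearest genes were CEBPA (0.121), NFKBIE (0.127), BCL3 (0.136), CEBPB (0.143) and TRIB3 (0.146), the last of which is a stress gene too. All 5 were above 0 in MDA-MB-468 and below 0 in ZR75-1, from 0.19 (CEBPB) to 0.69 (TRIB3) and from -0.55 (TRIB3) to -0.20 (BCL3). DDIT3 has these signs itself, so they follow from the choice of the genes and are no separate result. For HSPA5 the nearest were LOC728643 (0.0656), ANP32A (0.0692), MPP3 (0.0718), FAM213A (0.0719) and SAFB2 (0.0831), none of which is a listed gene of the pathways.

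**Figure D4:**
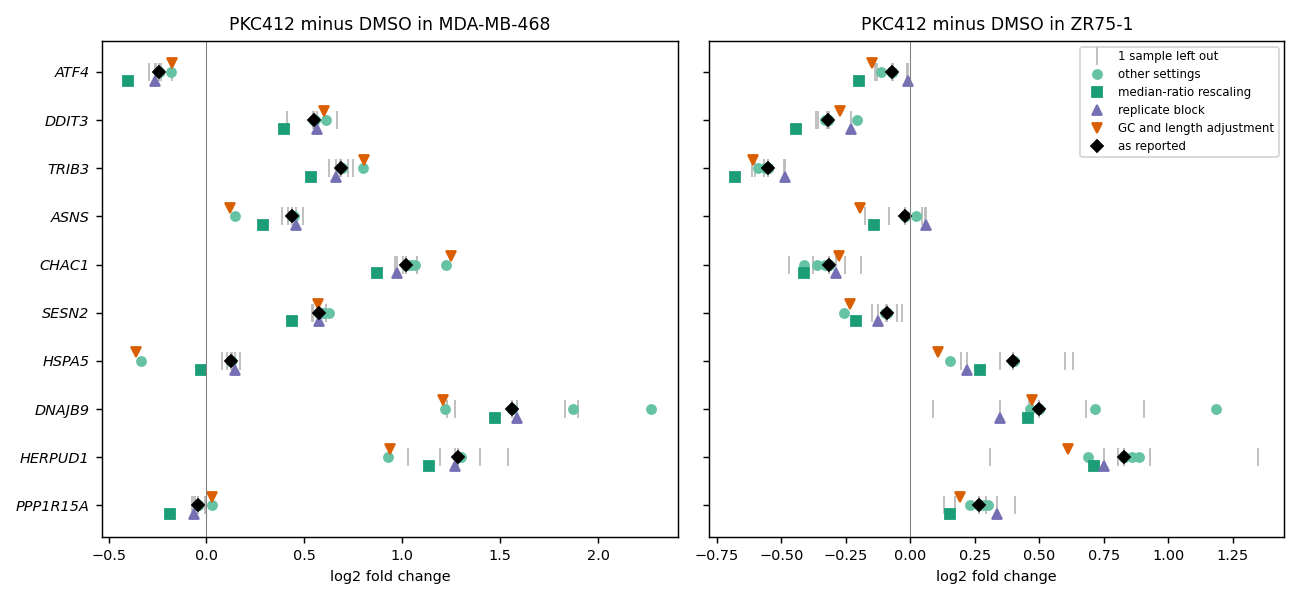
Log2 fold change, PKC412 minus DMSO, of the 10 stress genes in MDA-MB-468 (left) and ZR75-1 (right) as reported (black diamonds) and under other ways of processing (grey bars, 1 sample left out). TRIB3 and CHAC1 stay above 0 in MDA-MB-468 under every setting drawn and below 0 in ZR75-1, while HSPA5 and PPP1R15A in MDA-MB-468 and ASNS in ZR75-1 cross 0.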

How the data were processed

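RNA sequencing of 10 samples was used, 2 DMSO and 3 PKC412 samples for each of MDA-MB-468 and ZR75-1. The authors deposited FPKM per gene symbol, 1 file a sample, from an in-house pipeline. The submitters' processing notes name hg19, CASAVA 1.82 and TopHat2, and the program that made the FPKM, its annotation and its use of strand were not given in the sources used here. The methods describe triplicates, and 2 DMSO samples a line were analysed here. Groups came from the sample labels, which give no batch. No files were identical.

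After a pseudocount of 1 and a log2 transform, all 4 groups entered 1 limma fit (version 3.58.1, R 4.3.3) with a trended eBayes prior and 6 residual degrees of freedom. Genes whose mean exceeded 0.1 FPKM in any group (16071) were tested, and p-values were adjusted over all of them by Benjamini-Hochberg (threshold 0.05). The depth behind FPKM is unknown, so precision rests on the spread between samples. The code was tested on simulated data. Ratios of mean FPKM carry no pseudocount, and "called" means an adjusted p under the threshold.

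Alternatives were pseudocounts of 0.1 and 0.5, other limits on low FPKM, median-ratio rescaling within a line, a replicate block, each line alone, no trend, adjustment for GC content and length (polynomials of degree 3 per sample; GENCODE on GRCh38 matched 20638 genes, 88.1%), and each sample left out. Python 3.11.15, numpy 2.4.6, pandas 2.3.3 and matplotlib 3.10.9 were used.

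The genes named were the 10 stress genes, every listed pathway gene that was called, the 2 listed genes with the highest and the 2 with the lowest fold change below 0 in each list and line, XBP1, and the 5 genes most like DDIT3 and HSPA5. Members and lists were chosen with earlier results of these data known. SELS and VIMP are 1 gene, so 16 genes of the degradation list were used. The value of 1 gene that this rule names is not reported here.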

Additional observations from a re-analysis of the deposited data

Results flagged for a closer look

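The effect of PKC412 differed between the lines for TRIB3 and for DDIT4, by a test of the difference itself (limma). The difference of the log2 fold changes, MDA-MB-468 minus ZR75-1, was 1.24 for TRIB3 (0.69 and -0.55 in the lines) and 1.516 for DDIT4 (1.18 and -0.34). For both genes all treated samples of MDA-MB-468 were above its controls, and all treated samples of ZR75-1 were below theirs. DDIT4 passed with any 1 sample left out (adjusted p in limma 0.00779 to 0.0470), and TRIB3 did not (0.0210 to 0.0917). Both calls were lost with the replicate block, with or without the GC adjustment, where no gene was called for the difference. That of TRIB3 was also lost with median-ratio rescaling.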

How the results depend on the processing

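Of the 10 stress genes, 2 were called in MDA-MB-468 as reported, 1 with a pseudocount of 0.1 or 0.5 or with each line alone, 0 with median-ratio rescaling, 0 with the replicate block, 6 with the adjustment for GC content and length, 0 with that adjustment and the block, and 0 to 2 with a sample left out. In ZR75-1 the count of 0 became 1 with the GC adjustment. For the difference of the effects the count of 1 became 0 with rescaling, 0 with the block, 3 with the GC adjustment, 0 with both, and 0 to 2 with a sample left out. The number of stress genes at a 3-fold ratio in ZR75-1 was 0 to 1 with a sample left out, DNAJB9 being the 1 without DMSO replicate 2. The 9 calls between the lines stayed at 8 to 9. Signs of the fold change (log2) turned in MDA-MB-468 for HSPA5 (-0.0265 with rescaling, -0.361 with the GC adjustment, -0.333 with that and the block) and PPP1R15A (0.0301 with the adjustment, 0.0259 with the block added). In ZR75-1 that of ASNS reversed with the block (0.0619), with the adjustment and the block (0.0218) and with samples left out (-0.177 to 0.0619). With samples left out, the difference of the effects ran from -0.0633 to 0.975 for HERPUD1 and from -0.509 to 0.622 for XBP1, and the difference between the lines from -0.729 to 0.0864 for DNAJB9. The cause was not tested. Over all genes, the GC adjustment moved the median log2 fold change in MDA-MB-468 from 0.11 to 0.01 and the calls from 111 higher and 91 lower to 316 and 263, and in ZR75-1 the calls from 120 higher and 32 lower to 279 and 173. With each line alone, 38 higher and 43 lower were called in MDA-MB-468 and 9 and 3 in ZR75-1. The 28 genes of the ATF4 and amino acid response gave 0 to 9 calls in MDA-MB-468 over the settings other than leaving out a sample, the 9 with the GC adjustment.

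Whether replicate numbers pair the samples could not be decided. Same-numbered deviations from the group mean correlated at -0.689 and -0.614 in MDA-MB-468 and at 0.13 and -0.62 in ZR75-1. With 2 DMSO samples a line, the deviations of the controls mirror each other, so both values of a line rest on the same DMSO difference. The fit with the replicate block kept 2 residual degrees of freedom and called 0 of all genes in either line and in the difference (lowest adjusted p in limma 0.0677, 0.0623 and 0.151).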
